A study of Mus musculus with 8 samples.

Results

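The genes described here are 44 cell cycle genes, chosen by name from a list of replication and mitosis genes, among the 23761 genes of a table of expression in bone marrow-derived macrophages (BMDMs). By role they are 16 genes of S phase, 22 genes of G2 and mitosis, the 3 D-type cyclins and 3 transcription factors of the cell cycle, and all 44 are in the table. BMDMs are macrophages grown from marrow cells, here in medium conditioned by L929 fibroblasts. The controls (LysM, 4 libraries) were LysM Cre/Cre mice and the knockout group (K2KO, 4 libraries) were LysM Cre/Cre KLF2 flox/flox mice, all 3 months old and on a C57BL/6J background, and both descriptions mark the cells as vehicle samples. Both groups therefore carry Cre recombinase in both copies of the lysozyme M gene, whose promoter drives it in cells of the myeloid lineage. The question asked of these genes was whether macrophages of the 2 genotypes differed in the transcripts of DNA replication and of cell division. Libraries are numbered from 0 to 3 within each genotype (LysM0, K2KO0 and so on) after the columns of the table, which give the genotype but not the mouse, while the methods describe 4 mice per group. These numbers are not those of the sample titles, so LysM1 here need not be the sample titled LysM1.

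A dividing cell passes from G1 into S phase, where DNA is copied, and then through G2 into mitosis. D-type cyclins with their kinases CDK4 and CDK6 phosphorylate the retinoblastoma protein in G1, which releases E2F factors to switch on the replication genes. The genes of G2 and mitosis are switched on later, by MYBL2 and FOXM1 acting with the MuvB complex at promoter elements called CHR. Macrophages grown from marrow divide while their precursors expand under macrophage colony-stimulating factor, and most leave the cycle as they mature. In bulk RNA, fewer cells in cycle and less transcript per cycling cell cannot be told apart.

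Expression is given in FPKM (fragments per kilobase of transcript, relative to all mapped fragments), so that levels of genes of different length can be set side by side. The FPKM of a LysM library summed to between 497253 and 551608, those of a K2KO library to between 448235 and 501965. Read numbers are not given in the table. The steps between low values gave a sequencing depth from 0.920 to 1.44 times that of LysM0, with no difference between the genotypes beyond the spread of the libraries (p = 0.486 by an exact two-sided permutation test). Gapdh, a glycolysis gene in use in every cell, was listed below 1 FPKM in all 8 libraries, so low values were not taken to mean that a gene was silent. Differences are log2 fold changes of K2KO against LysM on the log2(FPKM + 0.1) scale, which understates the change of genes at low FPKM. They were tested with limma over the 10920 genes whose mean reached 1 FPKM. Differentially expressed means a log2 fold change beyond 0.26 in either direction with a Benjamini-Hochberg adjusted p under 0.05.

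Klf2, the targeted gene (chr8:72319033-72321656 of GRCm38, plus strand), was measured at 58.7 ± 12.7 FPKM (SD, n = 4) in LysM and 51.4 ± 9.22 FPKM (SD, n = 4) in K2KO. The difference of -0.18 (SE 0.17) on the log2 scale was within the spread between libraries (limma adjusted p = 0.460, exact two-sided permutation p = 0.429). It lay between -0.31 (without LysM0) and -0.07 (without LysM3) with 1 library left out and turned to 0.039 when the libraries were corrected for GC content and transcript length. A value for the whole gene cannot show whether an exon was removed, so the groups are called here by their labels. The 8 macrophage markers were all above 1 FPKM in both groups. They were led by the lysosomal glycoprotein gene Cd68 at 1834 FPKM in LysM and 1779 FPKM in K2KO.

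The promoters of 4 members are shown first, because S phase and mitotic genes are known for different promoter elements. The RefSeq promoter table (GRCm38.p6) matched 35 of the 44 members, with 39 promoters. The 250 bases before each start were searched on both strands for the CHR element (TTTGAA or TTCGAA), the CCAAT box (CCAAT), an E2F site (TTTGGCGC, TTTCGCGC, TTTCCCGC or TTTGCCGC) and the CACCC box that Krüppel-like factors bind. Mcm6 and Top2a hold the most matches among the S phase and the mitotic members named here, Ube2c had the largest difference of the mitotic members, and Ccnd3 was the differentially expressed member. Capitals mark the matches, and matches that touch or overlap run together.
Mcm6, chr1:128359706-128359955, minus strand: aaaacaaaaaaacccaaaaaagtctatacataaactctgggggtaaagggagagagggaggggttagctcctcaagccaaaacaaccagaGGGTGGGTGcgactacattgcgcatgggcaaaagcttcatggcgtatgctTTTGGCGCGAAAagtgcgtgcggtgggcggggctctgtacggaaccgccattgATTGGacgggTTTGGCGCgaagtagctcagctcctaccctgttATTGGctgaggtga
Top2a, chr11:99024190-99024439, minus strand: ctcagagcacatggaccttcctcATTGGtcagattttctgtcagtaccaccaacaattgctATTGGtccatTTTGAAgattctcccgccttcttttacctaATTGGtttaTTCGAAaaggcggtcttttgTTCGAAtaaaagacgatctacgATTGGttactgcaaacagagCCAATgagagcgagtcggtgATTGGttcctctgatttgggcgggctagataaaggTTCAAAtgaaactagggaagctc
Ube2c, chr2:164769679-164769928, plus strand: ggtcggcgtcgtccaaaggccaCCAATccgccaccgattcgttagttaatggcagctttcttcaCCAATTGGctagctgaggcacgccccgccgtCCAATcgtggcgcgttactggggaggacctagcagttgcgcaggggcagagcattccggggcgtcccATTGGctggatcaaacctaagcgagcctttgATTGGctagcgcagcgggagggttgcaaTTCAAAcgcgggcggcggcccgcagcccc
Ccnd3, chr17:47504801-47505050, plus strand: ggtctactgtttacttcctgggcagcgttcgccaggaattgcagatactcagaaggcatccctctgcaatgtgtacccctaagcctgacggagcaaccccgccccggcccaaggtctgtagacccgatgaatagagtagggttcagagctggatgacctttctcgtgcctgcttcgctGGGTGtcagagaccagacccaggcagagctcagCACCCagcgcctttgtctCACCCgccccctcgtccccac

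Mcm6 held 3 E2F matches, 2 CCAAT boxes and 2 CACCC boxes. Top2a held 4 CHR matches and 6 CCAAT boxes, Ube2c held 1 CHR match and 6 CCAAT boxes, and neither had an E2F or CACCC match. The Ccnd3 promoter shown held 3 CACCC boxes and no other match, and a further Ccnd3 promoter in the table held 2 CACCC boxes and 1 CCAAT box. A CHR match was present in 47.4% of 19 promoters of mitotic members, 18.8% of 16 promoters of S phase members and 17.1% of all 32851 promoters. CCAAT boxes were present in 89.5%, 75% and 33.8%, and E2F matches in 5.26%, 25% and 1.86%, in the same order. CACCC boxes were present in 42.1% of the mitotic promoters, 68.8% of the S phase promoters and 52% of all promoters. A match to these letters is a description of the sequence and not a bound site.

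Levels of the members differed widely. Only 7 of the 44 had a mean over 10 FPKM, namely the replication clamp Pcna, the helicase subunits Mcm6 and Mcm3, the cyclins Ccnd3 and Ccnd1, the transcription factor E2f1 and the mitotic kinase Cdk1. The S phase members were all above a mean of 1 FPKM, and 7 of the 16 were above 5 FPKM. In contrast, 18 of the 22 members of G2 and mitosis lay below 2 FPKM and 9 of them below 1 FPKM. The proliferation antigen Mki67 was at 0.512 ± 0.0715 FPKM in LysM and 0.528 ± 0.117 FPKM in K2KO (SD, n = 4 each). The filter at a mean of 1 FPKM left 32 members to be tested and 12 untested. Tyms, the thymidylate synthase gene, was just above it at a mean of 1.06 FPKM, and the cyclin Ccna2 was just below it at 0.761 FPKM.

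**Figure D1:**
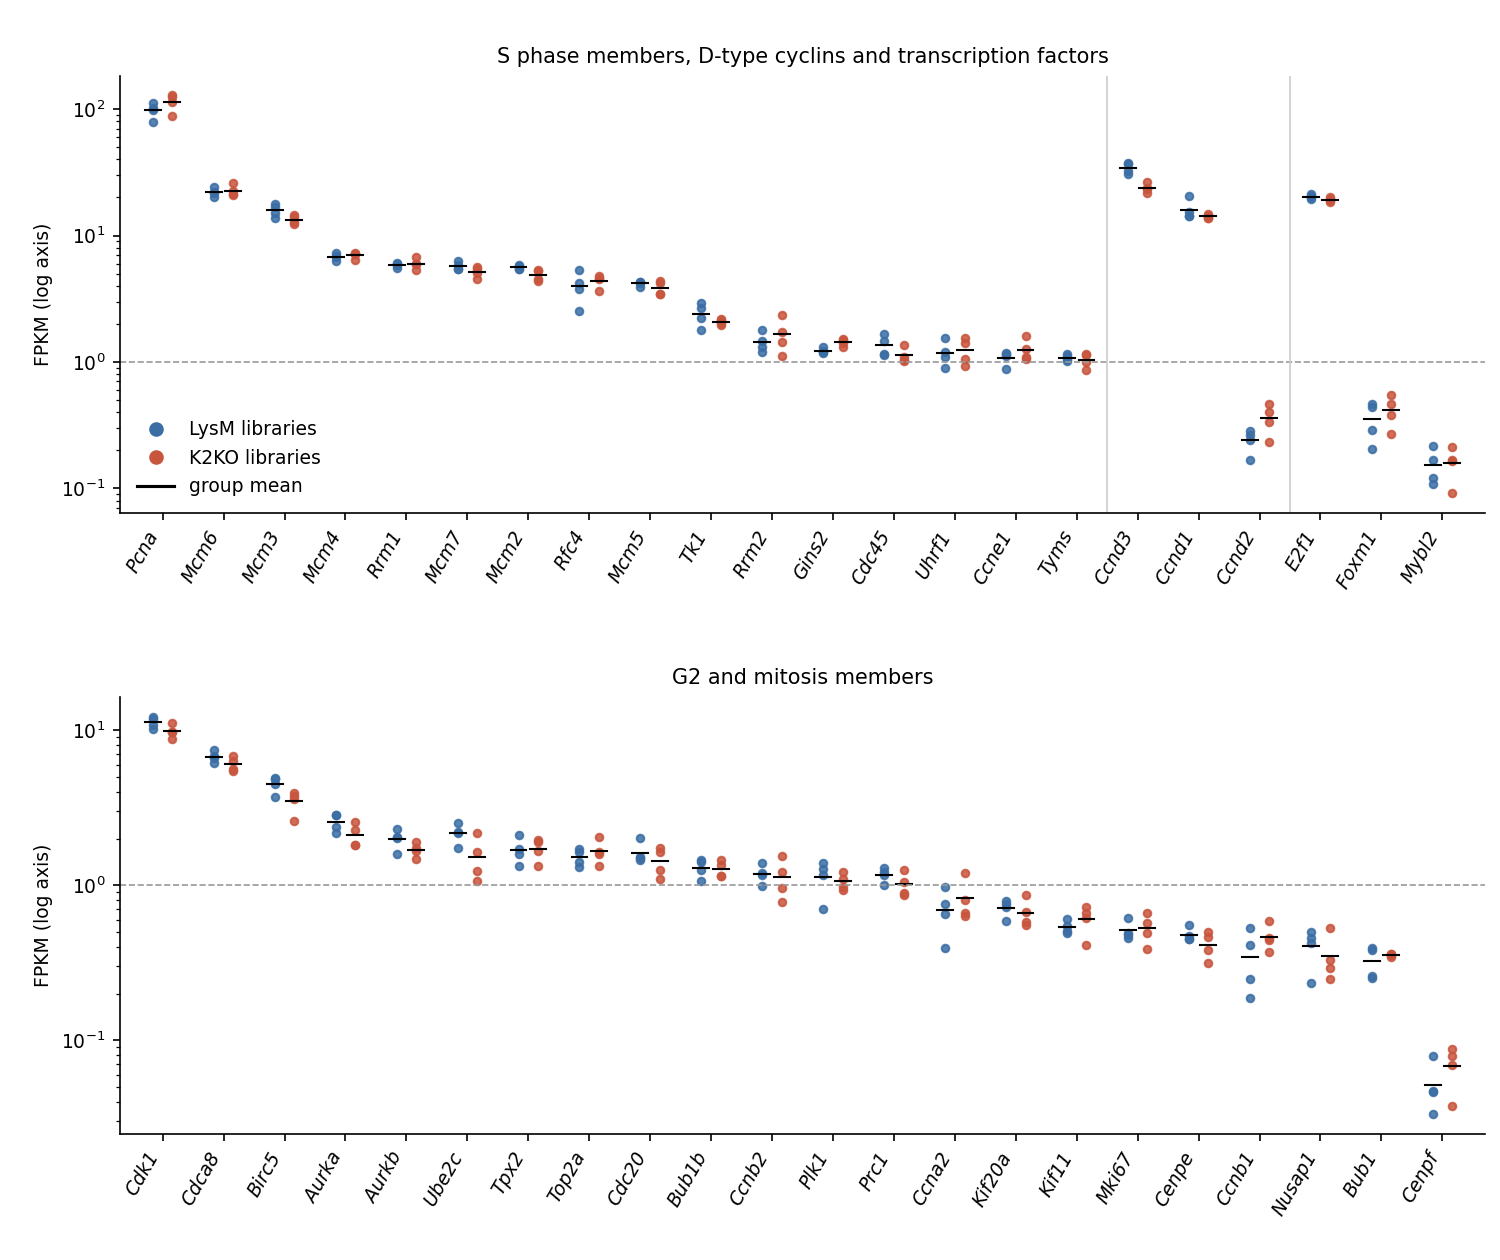
FPKM on a log axis of the 44 members, with 1 point per library (LysM blue, K2KO red) and a black bar at each group mean. Most members of G2 and mitosis sit near or below the dashed line at 1 FPKM, while the S phase members all have means above it.

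Of the 32 tested members, 1 was differentially expressed, against 18.4% of the 10920 tested genes in either direction. That member was the cyclin Ccnd3, which was lower in K2KO, a direction in which 8.61% of the tested genes were called, and 0 members were higher, beside 9.84% of the tested genes. At an unadjusted p under 0.05 there were 5 members (Ccnd3, Mcm2, Mcm3, Birc5 and Ube2c), against 37.8% of the tested genes. The LysM and K2KO values did not overlap for 2 members, Ccnd3 and Mcm2, against 23.1% of the tested genes. The median difference of the 32 members was -0.11, beside 0.01 over all tested genes, and 11 members had a positive and 21 a negative difference. The 95% interval of the difference lay within 1 of 0 on the log2 scale for 32 of the 32 members and for 92.9% of the tested genes. For 16 members it lay within 0.5 of 0. With 1 library left out, the sign of 10 members turned in at least 1 of the 8 fits, 11 others moved by more than 1.5 times, and 11, Ccnd3 among them, moved less. The lowest bound was -0.99 for Ube2c, whose interval ended at -0.03, and the highest was 0.66 for Rrm2, whose interval began at -0.35.

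**Figure D2:**
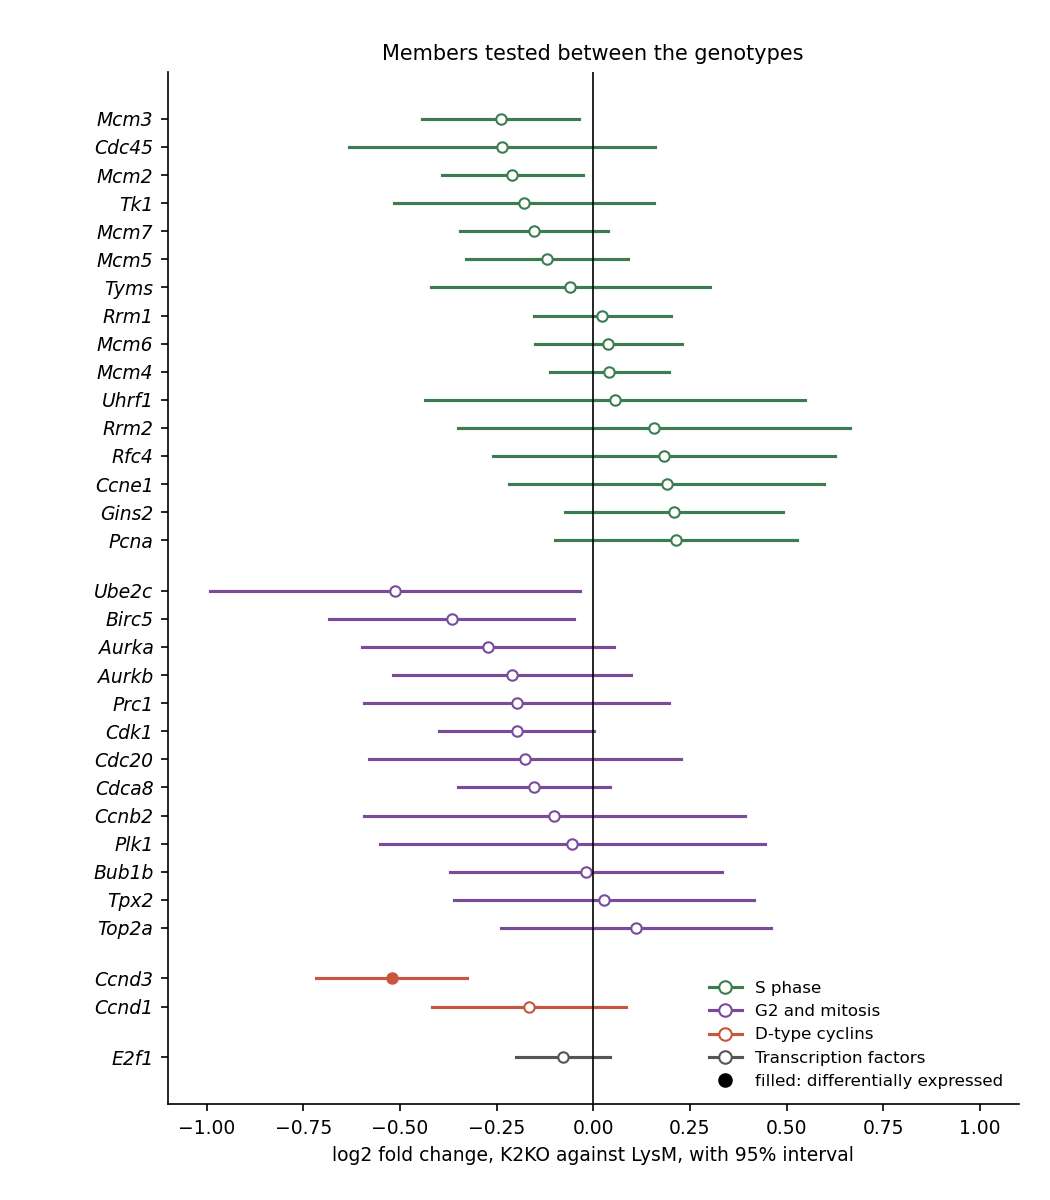
Log2 fold change of K2KO against LysM (horizontal axis) with its 95% interval for the 32 tested members, grouped by role. Ccnd3, the filled point, is the only differentially expressed member, and the other intervals that miss 0 belong to Mcm3, Mcm2, Ube2c and Birc5.

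The D-type cyclins, which couple growth factor signals to the G1 kinases, were the group with the differentially expressed member. Ccnd3 (chr17:47505051-47599691 of GRCm38, plus strand) was measured at 30.7, 32.1, 36.7 and 37.5 FPKM in LysM0 to LysM3 and at 23.5, 23.6, 21.7 and 26.5 FPKM in K2KO0 to K2KO3. Every K2KO library was below every LysM library. The group means were 34.3 ± 3.35 and 23.8 ± 1.99 FPKM (SD, n = 4 each), and the log2 fold change was -0.52 (SE 0.09, limma adjusted p = 0.0109). Ccnd3 kept the call in 8 of 8 fits that left out 1 library, with log2 fold changes from -0.57 to -0.48. Bysl, a ribosome biogenesis gene, overlaps Ccnd3 on the other strand at 5.05 FPKM in LysM and 4.34 FPKM in K2KO, and the pseudogene Ccnd3-ps was at 0.243 and 0.0901 FPKM.

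Ccnd1 stood at 14.3, 14.1, 20.4 and 15.4 FPKM in LysM0 to LysM3 and at 14.3, 13.7, 13.7 and 14.9 FPKM in K2KO0 to K2KO3. One control library, LysM2, was above the others, and the groups overlapped. The log2 fold change was -0.17 (SE 0.11, limma adjusted p = 0.295), and it was -0.046 without LysM2. Ccnd2, under the filter, was at 0.242, 0.168, 0.266 and 0.286 FPKM in the LysM libraries and at 0.333, 0.234, 0.399 and 0.465 FPKM in the K2KO libraries. Here too the groups overlapped, with K2KO1 among the LysM values. Per length of transcript, Ccnd3 was the highest of the 3 D-type cyclins and Ccnd2 the lowest in all 8 libraries. The summed level of the 3 was 45.3, 46.4, 57.4 and 53.2 FPKM in LysM0 to LysM3 and 38.1, 37.6, 35.7 and 41.8 FPKM in K2KO0 to K2KO3, most of it from Ccnd3.

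**Figure D3:**
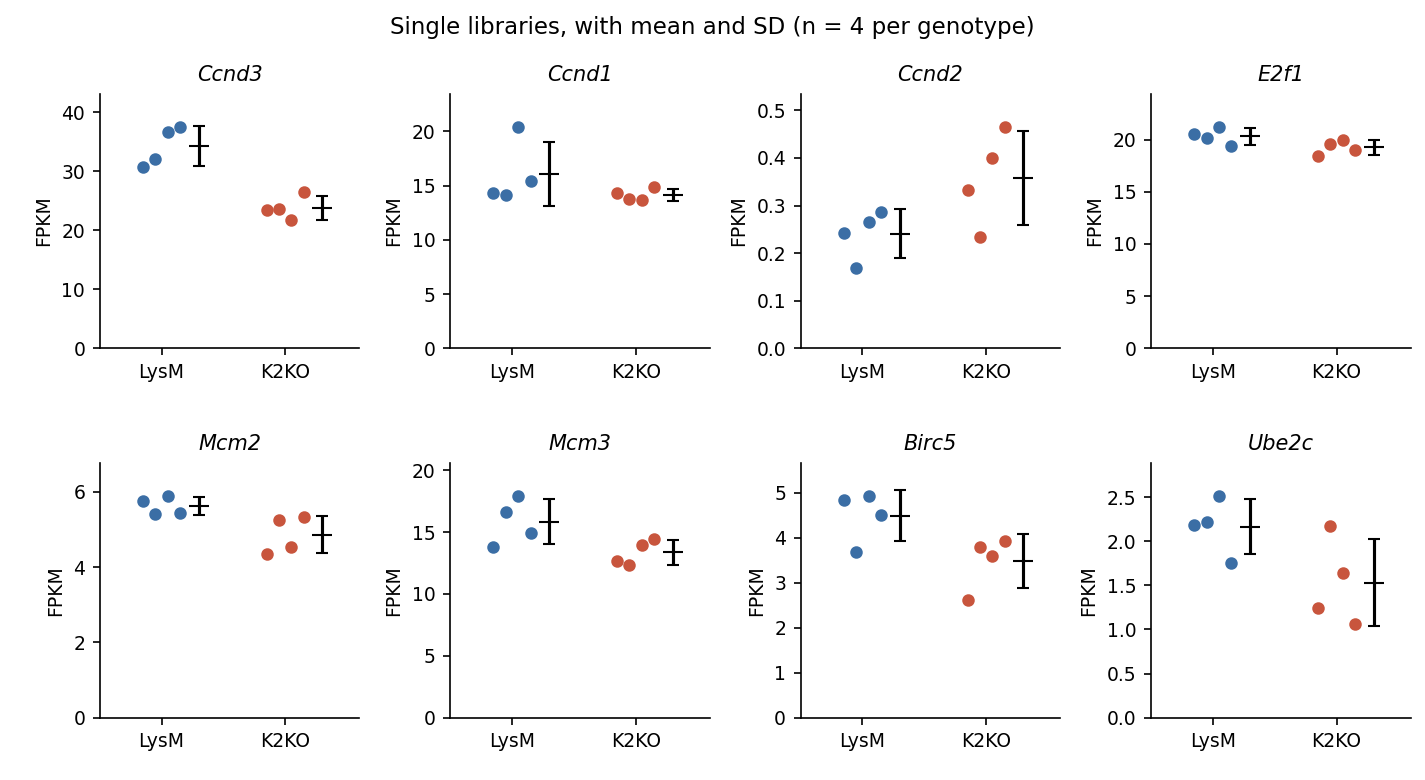
FPKM from 0 in each library (points) with the mean and SD of each genotype (black, n = 4) for the 3 D-type cyclins, E2f1, and 4 members with an unadjusted p under 0.05. The groups are apart for Ccnd3 and Mcm2 and overlap for the other 6 genes.

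The 16 S phase members gave no differentially expressed gene, with 2 at an unadjusted p under 0.05 (Mcm3 and Mcm2) by limma and 2 at that level by ordinary least squares, which called 0 as well. Their median difference was 0.03, with 9 positive and 7 negative differences. The median turned to -0.04 under quantile normalization and to -0.09 with the GC and length correction, each with 6 positive and 10 negative differences, and it was negative in 4 of the 8 fits that left out 1 library, so no direction is given for these genes. The helicase that unwinds DNA at the replication fork is built of 6 MCM subunits, all of them members. Mcm6, the highest of the 6, was at 22.0 ± 1.67 FPKM in LysM and 22.7 ± 2.30 FPKM in K2KO (SD, n = 4 each), a log2 fold change of 0.04 (SE 0.08, limma adjusted p = 0.757). Its sign turned to -0.06 when the libraries were corrected for GC content and transcript length.

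Mcm3 was measured at 13.8, 16.7, 17.9 and 14.9 FPKM in LysM0 to LysM3 and at 12.7, 12.4, 13.9 and 14.4 FPKM in K2KO0 to K2KO3. The lowest LysM library, LysM0, lay among the K2KO values. The log2 fold change was -0.24 (SE 0.09, limma adjusted p = 0.0860), and Mcm3 passed the threshold in the fit without LysM0, at -0.30 (limma adjusted p = 0.0363). Over the fits that left out 1 library its adjusted p ranged from 0.0363 to 0.192. Mcm2 was measured at 5.77, 5.40, 5.89 and 5.43 FPKM in LysM and at 4.36, 5.24, 4.53 and 5.33 FPKM in K2KO. The highest K2KO value was just under the lowest LysM value. The log2 fold change was -0.21 (SE 0.08, limma adjusted p = 0.0916). Mcm4, Mcm5 and Mcm7 had differences of 0.04, -0.12 and -0.15, none of them past the threshold, and Mcm5 lies 2.79 Mb from Klf2 on chromosome 8.

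Pcna encodes the sliding clamp of DNA polymerases and was the most abundant member. It was measured at 101, 98.97, 113 and 79.3 FPKM in LysM0 to LysM3 and at 88.5, 128, 125 and 114 FPKM in K2KO0 to K2KO3. The groups overlapped, and the log2 fold change was 0.21 (SE 0.14, limma adjusted p = 0.283). It was 0.12 without LysM3 and 0.33 without K2KO0, the lowest and highest values with 1 library left out. The processed pseudogene Pcna-ps2 matches Pcna at 99.2% identity over 781 bases and was listed at 44.1 FPKM in LysM and 54.0 FPKM in K2KO, so the Pcna level is uncertain. Without Pcna, the S phase members summed to 77.0, 81.5, 83.1 and 77.7 FPKM in the LysM libraries and 70.9, 78.2, 77.7 and 81.6 FPKM in the K2KO libraries.

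The other S phase members make nucleotides or help to load and run the fork. The ribonucleotide reductase subunits Rrm1 and Rrm2, which make deoxynucleotides, had differences of 0.02 (SE 0.08) and 0.16 (SE 0.22). Rrm2 ranged from 1.11 FPKM in K2KO0 to 2.365 FPKM in K2KO1, the lowest and the highest of the 8 libraries, both of 1 genotype. Thymidine kinase (Tk1) and Tyms had differences of -0.18 (SE 0.15) and -0.06 (SE 0.16). That of Tk1 was -0.31 without LysM1 and -0.078 without LysM0. Cdc45, a partner of the MCM helicase, was at 1.35 ± 0.262 FPKM in LysM and 1.13 ± 0.152 FPKM in K2KO (SD, n = 4 each), a log2 fold change of -0.24 (SE 0.18, limma adjusted p = 0.347) that was -0.14 without LysM2. Gins2, another helicase partner, and the cyclin Ccne1, which acts with CDK2 at the start of S phase, had differences of 0.21 (SE 0.13) and 0.19 (SE 0.18), the latter 0.077 without K2KO2 and 0.10 without LysM1. Rfc4, a subunit of the clamp loader, had a difference of 0.18 (SE 0.20) with LysM0 lowest at 2.53 FPKM and LysM3 highest at 5.33 FPKM. Rfc4 overlaps the translation factor gene Eif4a2 on the other strand, at a mean of 74.7 FPKM. Gins2, Mcm7 and Cdc45 also overlap more abundant genes on the other strand, in the case of Cdc45 Ufd1 at a mean of 19.8 FPKM.

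Of the 22 members of G2 and mitosis, 13 were tested and none was differentially expressed, with 2 at an unadjusted p under 0.05 (Birc5 and Ube2c) by limma and 0 at that level by ordinary least squares. The median difference of the 13 was -0.18, with 11 negative and 2 positive differences. With the filter lowered to a mean of 0.1 FPKM, 8 more could be fitted, 5 of them positive and 3 negative, and over the 21 the median was -0.10, with 14 negative and 7 positive differences. Summed over the 22, the level was 44.1, 41.1, 44.7 and 41.96 FPKM in LysM0 to LysM3 and 33.1, 42.4, 37.2 and 40.6 FPKM in K2KO0 to K2KO3. K2KO1 lay within the range of the LysM libraries, so the groups overlapped.

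Cdk1, the kinase that drives entry into mitosis, was measured at 10.2, 10.8, 11.9 and 12.3 FPKM in LysM0 to LysM3 and at 8.74, 9.74, 9.70 and 11.2 FPKM in K2KO0 to K2KO3. K2KO3 lay among the LysM values. The log2 fold change was -0.20 (SE 0.09, limma adjusted p = 0.137), and Cdk1 passed the threshold in the fit without K2KO3, at -0.26 (limma adjusted p = 0.0430). Its adjusted p ranged from 0.0430 to 0.304 over the fits that left out 1 library. Cdca8 and Birc5 (survivin) encode subunits of the chromosomal passenger complex, which corrects the attachment of chromosomes to the spindle, and Aurkb encodes its kinase. Cdca8 was at 6.77 ± 0.527 and 6.09 ± 0.616 FPKM (SD, n = 4 each), a difference of -0.15 (SE 0.09, limma adjusted p = 0.221).

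Birc5 was measured at 4.84, 3.69, 4.92 and 4.50 FPKM in LysM0 to LysM3 and at 2.62, 3.80, 3.59 and 3.92 FPKM in K2KO0 to K2KO3. K2KO0 was the lowest library, and LysM1 lay among the K2KO values. The log2 fold change was -0.37 (SE 0.14, limma adjusted p = 0.0902), and it was -0.24 without K2KO0. Ube2c encodes the ubiquitin-conjugating enzyme of the anaphase-promoting complex. It was measured at 2.18, 2.21, 2.51 and 1.75 FPKM in LysM and at 1.24, 2.17, 1.64 and 1.06 FPKM in K2KO. K2KO1 lay among the LysM values while K2KO0, K2KO2 and K2KO3 were below all of them, and the log2 fold change was -0.51 (SE 0.21, limma adjusted p = 0.112). The difference of Ube2c was close in size to that of Ccnd3, and its standard error was larger (0.21 against 0.09).

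The mitotic kinases Aurka, Aurkb and Plk1 had differences of -0.27 (SE 0.14), -0.21 (SE 0.14) and -0.05 (SE 0.22). Plk1 was at 1.13 ± 0.3004 FPKM in LysM and 1.06 ± 0.129 FPKM in K2KO (SD, n = 4 each), with LysM3 the lowest library at 0.701 FPKM. Top2a, the topoisomerase that untangles sister chromatids, was at 1.52 ± 0.190 and 1.66 ± 0.296 FPKM (SD, n = 4 each), a difference of 0.11 (SE 0.16, limma adjusted p = 0.626). The spindle checkpoint kinase Bub1b, the cyclin Ccnb2, the spindle factors Prc1 and Tpx2 and the anaphase activator Cdc20 had differences from -0.20 (Prc1) to 0.03 (Tpx2). Cdc20 overlaps Elovl1 on the other strand, at a mean of 92.8 FPKM, and Prc1 overlaps Rccd1, at 2.16 FPKM. The signs of Top2a, Tpx2, Plk1 and Bub1b turned under other scalings or corrections, and none of them was called.

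Among the 3 transcription factors, E2f1 alone was tested. It was measured at 20.6, 20.1, 21.2 and 19.4 FPKM in LysM0 to LysM3 and at 18.4, 19.6, 20.01 and 19.0 FPKM in K2KO0 to K2KO3. The groups overlapped over a narrow range, and the log2 fold change was -0.08 (SE 0.05, limma adjusted p = 0.315). Its 95% interval ran from -0.20 to 0.04. Foxm1 was at 0.350 ± 0.123 FPKM in LysM and 0.415 ± 0.1197 FPKM in K2KO, and Mybl2 at 0.154 ± 0.0488 and 0.159 ± 0.04997 FPKM (SD, n = 4 each).

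The 12 members under the filter were Ccnd2, Foxm1, Mybl2 and 9 of G2 and mitosis. The latter were the cyclins Ccna2 and Ccnb1, the kinesins Kif20a, Kif11 and Cenpe, the kinetochore genes Bub1 and Cenpf, the spindle gene Nusap1, and Mki67. Of these, Ccna2, Kif20a and Nusap1 overlap more abundant genes on the other strand. When the filter was lowered to a mean of 0.1 FPKM, 11 of the 12 could be tested, Cenpf staying below it. None of the 11 was called by limma, with 0 at an unadjusted p under 0.05, a lowest adjusted p of 0.254, and differences from -0.19 to 0.41. At that filter 1 of 43 members was differentially expressed, against 12.7% of the tested genes.

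Libraries of 1 genotype also differed from each other. K2KO1 was the highest of the 8 libraries for 10 of the 22 members of G2 and mitosis and for 6 of the 16 S phase members. K2KO0 was the lowest for 7 and 4 of them, and LysM3 was also the lowest for 7 and 4. After each member was centred on its mean over the 8 libraries, the median of the mitotic members on the log2 scale was 0.20, 0.02, 0.14 and -0.06 in LysM0 to LysM3 and -0.22, 0.20, -0.11 and 0.03 in K2KO0 to K2KO3. The same median of the S phase members was 0.01, -0.01, 0.08 and -0.02 in LysM and -0.17, 0.11, 0.01 and 0.01 in K2KO. K2KO0 was thus lowest and K2KO1 at or near the top on both. These 2 were also the deepest libraries, at 1.37 and 1.44 relative to LysM0, and the part of depth in these values was not tested.

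**Figure D4:**
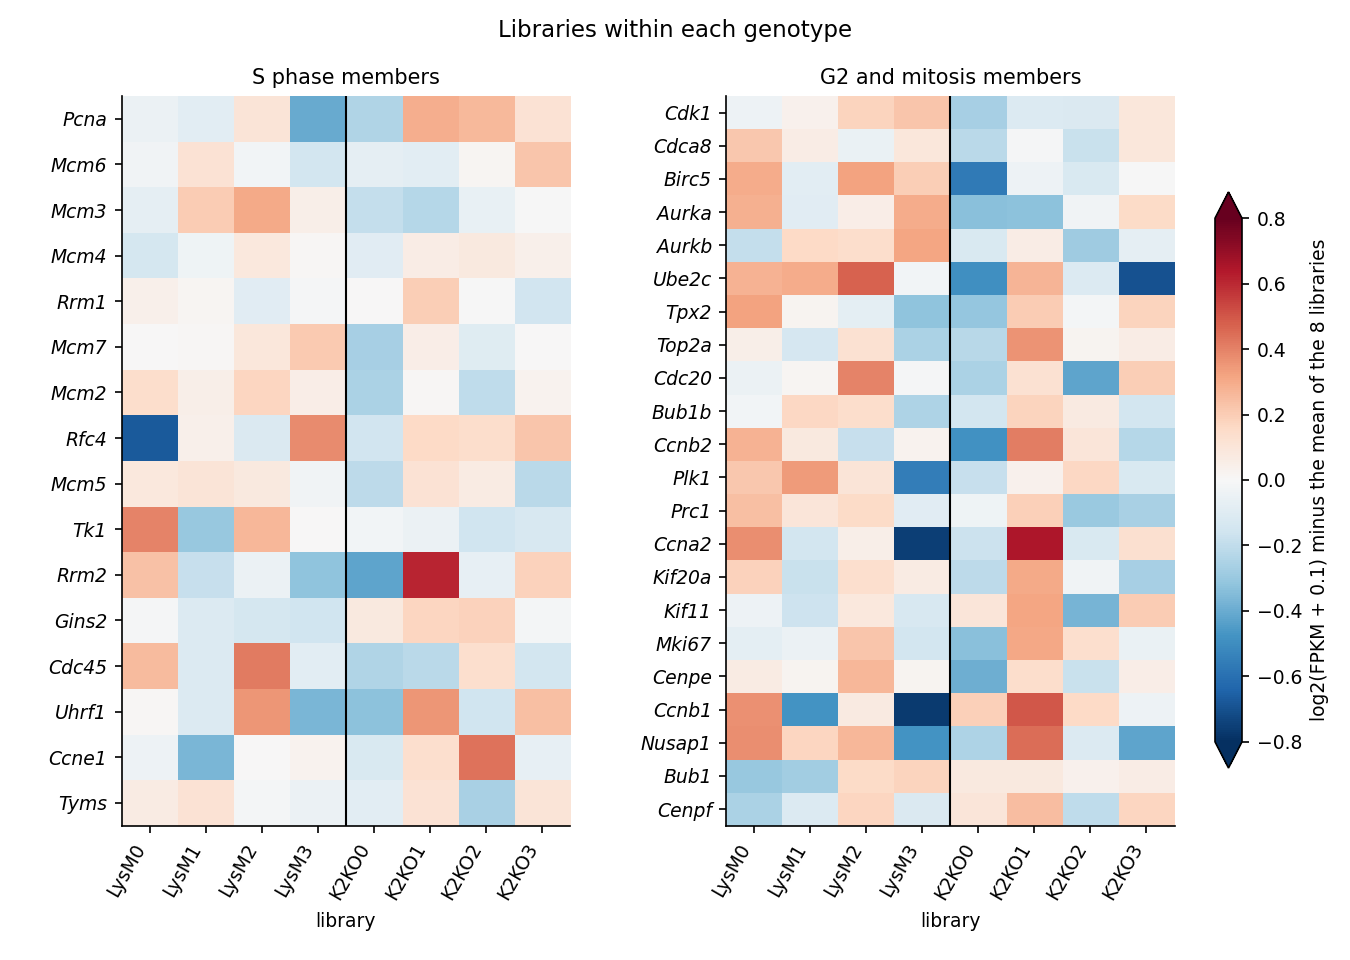
Log2(FPKM + 0.1) of each S phase member (left) and each member of G2 and mitosis (right) minus its mean over the 8 libraries, by library, with the colour scale ending at 0.8 in each direction and the genotypes parted by a black line. The K2KO0 column is mostly blue, with 2 of 16 and 4 of 22 members above their mean, and the K2KO1 column mostly red, with 12 of 16 and 18 of 22.

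Beyond the members, 239 genes in 9 lists of the cell cycle were read from the same fit. Of the 143 that were tested, 14 were differentially expressed (9.79%, beside 18.4% of all tested genes), 6 higher and 8 lower in K2KO. The list of 56 further genes of mitosis and cytokinesis had 23 tested and 0 called, with 3 at an unadjusted p under 0.05, and a median difference of -0.03. In the list of 48 further genes of DNA replication, 37 were tested, 2 were higher and 3 lower, and the median difference was -0.05. The histone cluster genes, chosen by gene name alone, had 14 of 58 tested and 0 called, with 0 at an unadjusted p under 0.05 and a median difference of -0.08. Whether each of them is transcribed only in S phase was not checked. Hist1h1c and Hist1h2bc made up 86.0% of their summed level, so that sum mostly follows these genes and was not used as a measure of S phase.

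Among the replication genes, Rnaseh2a, the catalytic subunit of the RNase that removes ribonucleotides from DNA, was the gene with the lowest adjusted p. It was measured at 22.8, 25.4, 26.4 and 24.7 FPKM in LysM0 to LysM3 and at 16.4, 15.8, 17.8 and 18.1 FPKM in K2KO0 to K2KO3. The groups did not overlap, and the log2 fold change was -0.54 (SE 0.07, limma adjusted p = 0.00417). Rnaseh2a lies 12.6 Mb from Klf2 on chromosome 8, the chromosome of the floxed allele, and what part that position had in the difference was not tested. Rpa2, a subunit of the protein that coats single-stranded DNA, was at 11.7 ± 0.843 and 8.59 ± 0.913 FPKM (SD, n = 4 each), a change of -0.44 (SE 0.09, limma adjusted p = 0.0139). The DNA ligase gene Lig1 fell from 6.83 ± 0.130 to 5.57 ± 0.575 FPKM, a change of -0.29 (SE 0.08, limma adjusted p = 0.0298). The checkpoint gene Topbp1 and the origin recognition gene Orc4 (named after its values were seen) were higher in K2KO, by 0.30 (SE 0.08) and 0.28 (SE 0.07).

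The list of cyclins, CDKs and the kinases and phosphatases that act on them had 15 tested genes, with Wee1 higher and Cdc25b lower in K2KO. WEE1 holds CDK1 inactive by phosphorylation, and CDC25B removes that phosphate. Wee1 was at 0.963 ± 0.0677 FPKM in LysM and 1.43 ± 0.143 FPKM in K2KO (SD, n = 4 each), a change of 0.52 (SE 0.14, limma adjusted p = 0.0353). Its LysM mean was under the filter of 1 FPKM, which Wee1 passed only through its K2KO values. With the filter at 0.1 FPKM the change was 0.52 (SE 0.11, limma adjusted p = 0.0251). Over the 13 alternatives with all libraries the change ranged from 0.31 to 0.56, and Wee1 was called in 9. It was called in 2 of the 8 fits that left out 1 library. Cdc25b was measured at 11.1, 12.3, 11.9 and 11.4 FPKM in LysM0 to LysM3 and at 9.97, 8.57, 8.80 and 9.11 FPKM in K2KO0 to K2KO3. The groups did not overlap, and the change was -0.36 (SE 0.07, limma adjusted p = 0.0126). The partners of the D-type cyclins had differences of -0.09 (Cdk4, SE 0.06) and 0.15 (Cdk6, SE 0.13), and neither was called (both named after their values were seen).

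In the anaphase-promoting complex, the ubiquitin ligase that ends mitosis, 14 of 14 genes were tested, with Cdc27 higher by 0.38 (SE 0.09) and Anapc13 lower by a log2 fold change of -0.41 (SE 0.11). The pocket proteins and E2F family had 15 tested genes, with Tfdp1 (an E2F partner, 0.36, SE 0.09) and E2f3 (0.29, SE 0.08) higher and none lower. Over all tested genes, 9.84% were called higher and 8.61% lower. Of 5 tested CDK inhibitors 1 was lower, Cdkn2d, at 12.7 ± 1.405 FPKM in LysM and 10.3 ± 0.373 FPKM in K2KO (SD, n = 4 each), a change of -0.30 (SE 0.08, limma adjusted p = 0.0342). In the list of p53 and its targets, 11 genes were tested and 2 were lower, beside 8.61% of the tested genes, the proapoptotic gene Bbc3 (-0.40, SE 0.08) and Phlda3 (-0.56, SE 0.16), an inhibitor of AKT signaling. The median difference of the 11 was 0.11, with 7 positive and 4 negative differences. The 9 tested genes of the MYC network and the MAF factors gave 0 calls by limma, with 2 at an unadjusted p under 0.05. At that level, which 37.8% of all tested genes reached, there were 7 of 14 tested genes of the anaphase-promoting complex, 8 of 15 of the pocket proteins and E2F family, 7 of 11 of p53 and its targets, 12 of 37 of DNA replication, 5 of 15 of the cyclins, kinases and phosphatases, and 2 of 5 CDK inhibitors.

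Of the 14 called genes in these lists, 6 were called when the libraries were corrected for GC content and transcript length and 8 were not. The differences of those 8 after the correction were 0.16 for Topbp1, 0.034 for Orc4, 0.14 for Cdc27, 0.32 for Tfdp1, 0.21 for E2f3, -0.13 for Cdkn2d, -0.12 for Bbc3 and -0.30 for Phlda3, so those of Orc4, Cdc27, Cdkn2d, Bbc3, Phlda3 and Topbp1 shrank by more than 1.5 times while Tfdp1 and E2f3 moved less. Rnaseh2a, Rpa2 and Cdc25b were the 3 that were called in each of the 8 fits that left out 1 library.

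**Figure D5:**
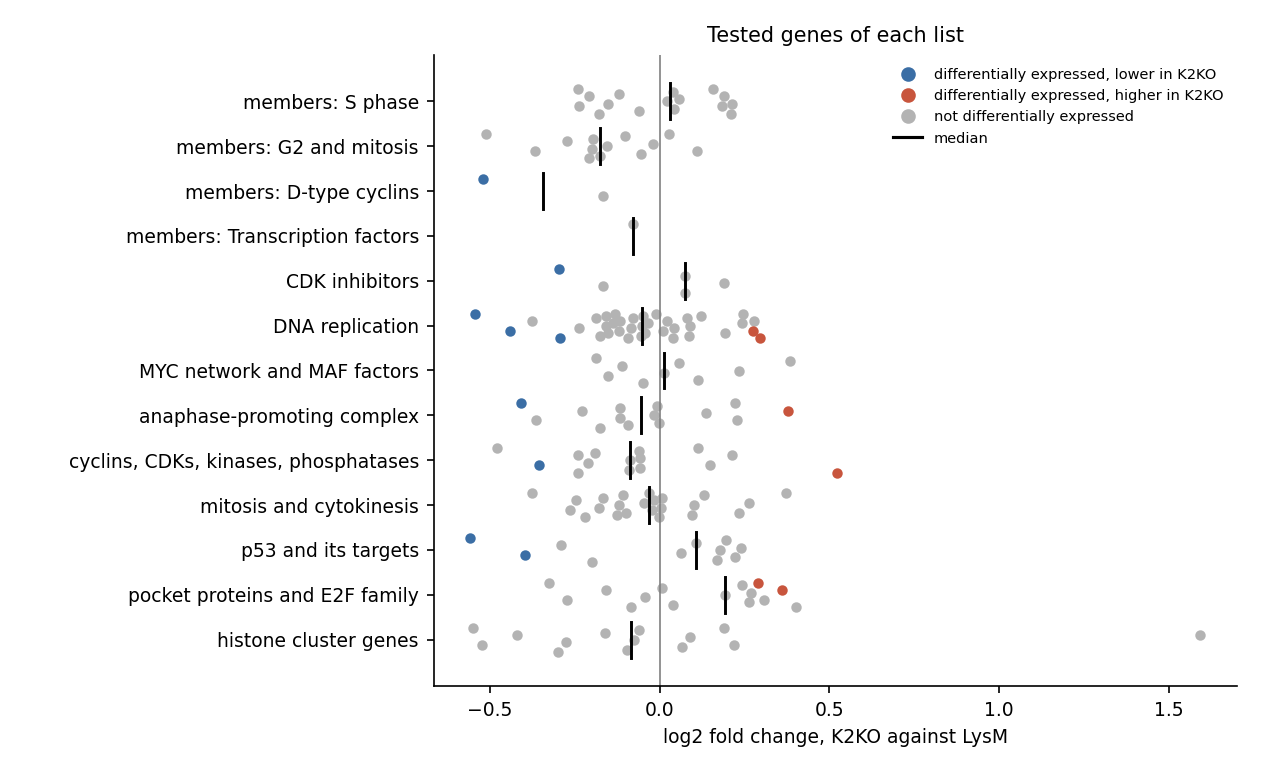
Log2 fold change of K2KO against LysM for the tested genes of each role of the members and of each further list, with 1 point per gene (blue lower, red higher, grey not differentially expressed; vertical spread within a row has no meaning) and a black bar at the median. No row has more than 5 coloured points, and the rows of the S phase members, the mitotic members, the transcription factors, the MYC network and MAF factors, the further mitosis genes and the histone genes have none.

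Markers of other cells that marrow cultures can hold were read beside these values. The summed macrophage markers were at 4042 ± 88.1 FPKM in LysM and 3764 ± 68.0 FPKM in K2KO (SD, n = 4 each) and did not overlap. Most of that gap was in the lipopolysaccharide co-receptor gene Cd14, at 1028 ± 56.7 and 829 ± 118 FPKM (SD, n = 4 each), whose groups did not overlap but whose change of -0.32 (SE 0.11, limma adjusted p = 0.0630) was not called. Among the 8, Mertk was called higher and Lyz2 lower. Lyz2 is the lysozyme M gene, which carries Cre in both copies in both groups, so its level is that of an altered gene. Neutrophil markers summed to 276 ± 58.8 and 279 ± 56.9 FPKM, led by S100a9 (SD, n = 4 each). Among them the granule peptide gene Camp was lower in K2KO, at 13.6 ± 2.21 and 6.397 ± 2.53 FPKM (SD, n = 4 each), a change of -1.14 (SE 0.24, limma adjusted p = 0.0178), and its groups did not overlap. Camp was the 1 called gene of 7 tested neutrophil markers, beside 18.4% of all tested genes. Of the 7, 3 had positive and 4 negative differences. Marrow progenitor markers summed to 6.51 ± 0.921 and 8.07 ± 2.22 FPKM, led by Elane (SD, n = 4 each). Kit, the stem cell factor receptor gene of progenitors, was at 0.123 ± 0.0362 and 0.333 ± 0.0645 FPKM (SD, n = 4 each), and at the filter of 0.1 FPKM it was higher in K2KO by 0.96 (SE 0.23, limma adjusted p = 0.0314), with groups that did not overlap. At that filter Kit was the 1 called gene of 8 progenitor markers, beside 12.7% of the tested genes. Cd14, Mertk, Lyz2, Camp and Kit were named after their values were seen. The 7 T and NK cell markers summed to 2.59 FPKM in LysM and 6.24 FPKM in K2KO, led by Cd4, which rose by 1.38 (SE 0.12, limma adjusted p = 0.000434) while the other 6 had means below 1 FPKM. B cell markers summed to 3.21 and 4.38 FPKM, led by Cd79b, with 5 of 6 below 1 FPKM. Dendritic cell markers summed to 1.70 and 3.03 FPKM, led by Ccr7, with 5 of 6 below 1 FPKM. Of the erythroid markers 5 were read, summing to 2.54 and 2.32 FPKM with Epor the highest and Hbb-bt at 0 in all 8 libraries. The 8 fibroblast and stromal markers all had means below 1 FPKM and summed to 0.689 ± 0.538 and 1.82 ± 1.27 FPKM (SD, n = 4 each), led by Dcn, with K2KO0 the highest library at 3.52 FPKM and groups that overlapped. Whether other cells contributed to the differences in Ccnd3 and in the listed genes was not tested.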

How the data were processed

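Total RNA of 8 BMDM libraries was sequenced. The authors deposited 1 table of FPKM, computed with Cufflinks on mm10, with a column for each library. The methods name TopHat2 as the aligner and the submitters' processing notes name STAR, and the labels and the methods name different RNA isolation kits. Whether quantification used strand is not given in the sources used here, so values of the 17 members that overlap a gene on the other strand are uncertain. Of 23761 listed genes, 23645 were matched to GENCODE M21 (GRCm38), and copies (at least 95% identity over 200 bases) were found with blastn 2.17.0.

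Log2(FPKM + 0.1) of the 10920 genes whose mean reached 1 FPKM was fitted with limma 3.58.1 under R 4.3.3 (lmFit, then eBayes with a trend on intensity), without covariates, with p-values adjusted by the Benjamini-Hochberg method over all of them. The script was tested on simulated data. No read counts are given, so no counting error could be stated. The methods give 4 mice per group, but nothing in the table links a column to a mouse, so p-values measure the spread between libraries.

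The members and lists were chosen with earlier results of these data known. Genes named are Klf2, the called member, the 3 most abundant members and the 2 largest differences of each role, 6 fixed members, those beside the filter, up to 4 called genes of each list and the leading marker of each cell type. Members beyond these are named for completeness. The alternatives were another pseudocount (1 or 0.01), a mean FPKM of at least 0.1 or no filter, quantile or upper-quartile scaling, no intensity trend, ordinary least squares, an absolute log2 fold change over 1 in place of 0.26, a block on the column number, local regression of each library on transcript GC content and length, protein-coding genes alone, and each library left out in turn.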

Additional observations from a re-analysis of the deposited data

Results flagged for a closer look

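Dixon's test was applied to the 44 members and 28 of the further genes described, 144 groups of 4 libraries, and 5 of them held a library far from the others, where chance gives about 1 in 20 groups, or 7.2 here. Wee1, the kinase gene that was higher in K2KO, was at 0.8629 FPKM in LysM1 and between 0.986 and 1.01 FPKM in the other 3 LysM libraries. Ccr7, the leading dendritic cell marker, was at 0.302 FPKM in LysM0 and between 1.12 and 1.29 FPKM in the other 3 LysM libraries. Cdc20 and Cenpe were the members among them. Cdc20 was at 2.0121 FPKM in LysM2 and between 1.45 and 1.52 FPKM in the other 3 LysM libraries, and Cenpe, under the filter, was at 0.5545 FPKM in LysM2 and between 0.451 and 0.468 FPKM in the others. Kit, the progenitor marker, was at 0.1773 FPKM in LysM2 and between 0.101 and 0.108 FPKM in the other 3 LysM libraries.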

How the results depend on the processing

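Over the 13 alternatives with all libraries and the 8 that left out 1 library, 628 of 672 values of the 32 tested members kept their direction and their side of the threshold. A lower filter, no filter, no intensity trend and ordinary least squares left each difference as it was. So did the replicate block alone, protein-coding genes alone and the larger fold change, so directions could not change in these settings. The larger fold change could only remove calls. Changed directions were 39, in 13 members, none of them called and none larger than 0.164 on the log2 scale. The number of differentially expressed members was 2 under quantile normalization (Mcm2 joined at -0.30, 1 S phase member) and 2 under the replicate block with the GC and length correction (Cdk1 joined at -0.29, 1 member of G2 and mitosis). It was 0 at an absolute log2 fold change over 1, where the D-type cyclins had 0. Leaving out 1 library gave 1 to 2 members, 0 to 1 of S phase (Mcm3 without LysM0) and 0 to 1 of G2 and mitosis (Cdk1 without K2KO3). The further lists had 14 called genes, 3 with no filter on low values, 6 by ordinary least squares, 3 under the replicate block with the GC and length correction, 0 at the larger fold change, and 3 (without LysM3) to 23 (without K2KO3) with 1 library left out.

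Reversed differences under quantile normalization were -0.0735 for Tpx2, -0.0095 for Mcm4, -0.0419 for Rrm1 and -0.038 for Uhrf1, and under upper-quartile scaling 0.0222 for Bub1b. With the GC and length correction, with or without the replicate block, they were 0.0392 for Klf2, -0.0605 for Tpx2, -0.0705 for Top2a, 0.0644 for Plk1, -0.0557 for Mcm6, -0.0546 for Mcm4, -0.164 for Rrm1 and 0.0411 for E2f1. The cause was not tested. Leaving out 1 library gave -0.075 to 0.1386 for Tpx2, -0.1043 to 0.0336 for Bub1b, -0.2543 to 0.0434 for Ccnb2, -0.2474 to 0.0507 for Plk1, -0.0277 to 0.085 for Mcm6, -0.038 to 0.0775 for Rrm1, -0.0089 to 0.3404 for Rfc4, -0.0206 to 0.323 for Rrm2, -0.0555 to 0.1832 for Uhrf1 and -0.1075 to 0.0165 for Tyms. The median of the S phase members was -0.04 under quantile normalization and -0.09 with the GC and length correction, and it was also negative without LysM0 (-0.0036), LysM3 (-0.03), K2KO1 (-0.05) or K2KO3 (-0.02). That of the mitotic members was negative in each setting, including those that leave the differences as they were. It ranged from -0.23 under quantile normalization to -0.11 with a pseudocount of 1.

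Whether column numbers pair the libraries is not known. Same-numbered libraries correlated at -0.070, 0.020, 0.073 and -0.057 in their deviations from the group means. Differently numbered ones ranged from -0.135 (LysM3 with K2KO1) to 0.184 (LysM0 with K2KO1), so these values do not settle it. With the replicate block alone 1 member, Ccnd3, was called (-0.52), as without it, and 12 of the listed genes. The number of genes called among all tested was 2014 and ranged from 110 at the larger fold change to 2083 under upper-quartile scaling, where 64.1% were higher against 53.3% as deposited. With the GC and length correction it was 1098, of which 44.2% were higher, with no filter 483, by ordinary least squares 746, and with the block and the correction 868. It ran from 543 without LysM3 to 2863 without K2KO3. The median SD within the genotypes on the log2 scale was 0.215 for the tested mitotic members, 0.137 for the S phase members and 0.132 for all tested genes. For the 2108 tested genes with a mean under 3 FPKM it was 0.204. Of those 2108 genes, 254 were called, 198 higher and 56 lower in K2KO.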
